A study of Mus musculus with 4 samples.

Results

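The liver breaks down surplus amino acids with a set of enzymes that are low before birth and come on around it. 9 of them were followed here on mouse whole-genome arrays: *Tat*, *Hpd*, *Hgd* and *Fah* of tyrosine breakdown, *Tdo2* of tryptophan breakdown, and *Sds*, *Agxt*, *Hal* and *Gls2*, which act on serine, glyoxylate, histidine and glutamine. They were picked by gene name from the 36161 gene names on the array, by a rule that uses no signal but was set with earlier results of these data known, and every probe that carried 1 of these names was taken, which gave 10 probes. The study set liver of microsomic mice (M), which were small for their sex by body weight, against liver of littermate controls (C) of usual weight. RNA of whole liver was hybridised to 1-colour arrays. MF and CF stand for microsomic and control females and MM and CM for the males of each kind, with 1 array in each group. All 4 are labelled C57BL/6J and Embryonic Day 20, whereas the methods of the study describe newborn mice and a related substrain. No treatment or engineered allele is named for any group. The methods describe independent replicate experiments for each group, and the labels do not say whether an array is 1 of these or a pool, nor how many animals are behind it. With 1 array in a group, a difference between M and C within a sex has no replicate check, and the group cannot be told apart from its array or its animals.

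Most of these genes are silent or low in fetal liver and are switched on near birth, when glucagon and glucocorticoids rise and the maternal supply of nutrients ends. Tyrosine aminotransferase, the product of *Tat*, is a classic example of an enzyme induced by both hormones. In the adult liver, *Sds*, *Hal* and *Gls2* are expressed mainly in the hepatocytes around the portal vein, where amino acids arrive from the gut.

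The probes are 60 bases long. Those of *Sds*, *Tdo2* and *Fah* are shown because *Sds* and *Tdo2* were the members furthest below CF in MF and *Fah* was the only member higher in MF than in CF. Positions are on mm9, the build named with the deposited annotation. They are chr5:120933105-120933164 on the plus strand for *Sds*, chr3:81767918-81770928 on the minus strand for *Tdo2* and chr7:91740916-91741732 on the minus strand for *Fah*. The *Tdo2* and *Fah* probes reach over 3011 and 817 bases of the genome, so each joins exon sequence from both sides of an intron.
Sds: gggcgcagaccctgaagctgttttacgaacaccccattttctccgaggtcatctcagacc
Tdo2: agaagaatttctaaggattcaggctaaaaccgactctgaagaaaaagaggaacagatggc
Fah: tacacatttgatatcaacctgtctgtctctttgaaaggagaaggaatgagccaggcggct

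The other probes lay at chr8:112523207-112523266 (*Tat*, plus strand), chr5:123622237-123624360 (*Hpd*, minus strand, over 2124 bases of the genome), chr16:37621972-37622031 (*Hgd*, plus strand), chr1:95041901-95041959 (*Agxt*, plus strand) and chr10:127646830-127646889 (*Gls2*, plus strand). *Hal* had 2 probes on the plus strand, at chr10:92979135-92979194 and chr10:92981534-92981593. No gene model of mm9 was used here, so exon and UTR positions are not given for them.

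Levels are given as log2 of the processed signal relative to its array's 75th percentile, so 0 is a signal equal to that percentile. They serve to compare arrays for 1 probe and not probes with each other. All 10 probes were well above background on all 4 arrays and none was saturated. The scanner software's own error per spot was 10% to 10.9% of the signal. Probes printed at 10 spots on each array gave an SD of 0.356 for the log2 difference between MF and CF at 1 spot and 0.398 for that between MM and CM, over 297 such probes. This SD holds spot noise only and no variation between animals. The spot of *Hpd* on the CF array was flagged as non-uniform, and since *Hpd* had no other probe it was left out of the counts, which therefore run over 8 members.

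The 75th percentile of signal lay between 628 and 925 on the 4 arrays, and 56.1% to 65.3% of probes were well above background. All 10 hepatocyte markers, such as *Alb* and *Ttr*, were well above background on every array. Markers of other tissues set some arrays apart. The summed signal of 9 heart muscle markers, in units of the array's 75th percentile, was 179.5 on CF against 2.48 to 5.90 on the other 3 arrays, and 8 of the 9 were over 1.5-fold lower in MF than in CF. The summed signal of 9 intestinal epithelium markers was 104 on MF and 101 on MM against 17.5 on CF and 12.5 on CM, and 8 of the 9 were over 1.5-fold higher in MF than in CF. The sum on MM came mostly from *Apoa4* and *Fabp2*, and of the 7 compared in males 4 were over 1.5-fold lower in MM, with a median log2 difference of -0.66. All 9 were well above background on MF, against 6 on MM, 5 on CF and 6 on CM. All 8 granulocyte and macrophage markers were over 1.5-fold higher in MF than in CF. The array of control females and that of microsomic females therefore both carried signal of other cells that moved with the female comparison, and its part in the values below was not tested. In whole liver, fewer cells of a type and less RNA per cell cannot be told apart.

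**Figure D1:**
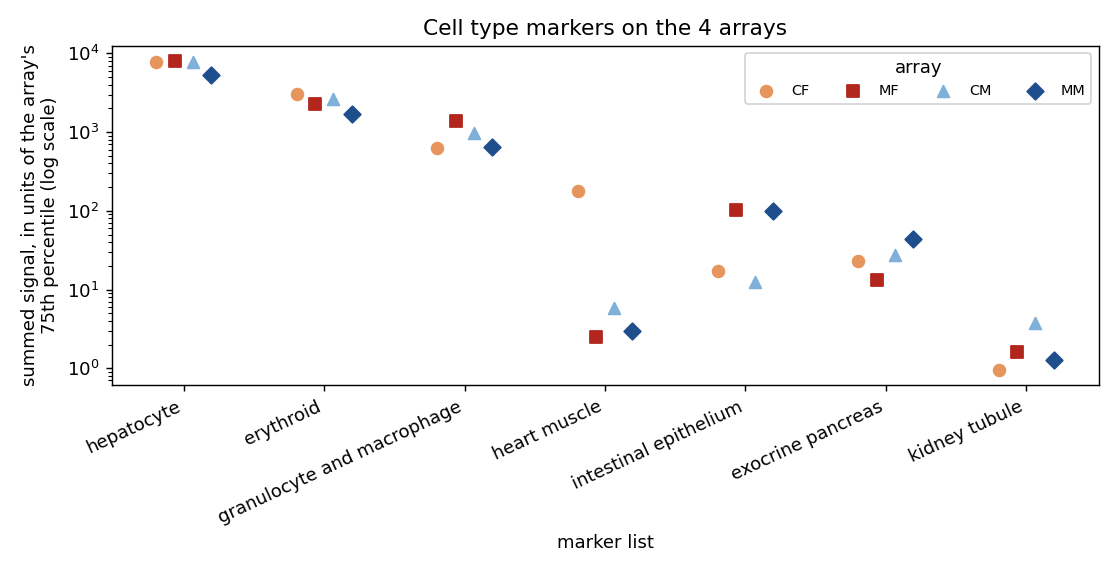
Summed signal of 7 lists of cell type markers on each array (log scale, in units of the array's 75th percentile); each point is 1 array. Heart muscle markers reached 179.5 on CF and 2.48 to 5.90 elsewhere. The intestinal sum was 104 on MF and 101 on MM, and came mostly from *Apoa4* and *Fabp2* on each array.

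In females, 6 of the 8 members were over 1.5-fold lower in MF than in CF and 1 was higher. Among all 25538 genes compared, 21.2% were lower and 19.9% higher by that much. The 6 were *Tdo2*, *Sds*, *Tat*, *Gls2*, *Hal* and *Agxt*, and all 6 were also over 2-fold lower, which held for 8.92% of all genes. The median log2 difference of the 8 members was -1.35, against -0.06 over all genes. In males, 2 of the 8, *Sds* and *Gls2*, were over 1.5-fold lower in MM than in CM, where 24.9% of 26315 genes were, and 2, *Hal* and *Agxt*, were higher, where 17.5% were. The male median was -0.02, against -0.06 over all genes, with 4 members above 0 and 4 below. It took either sign under other scalings, at -0.51 with normexp and quantile normalization and 0.54 unscaled. The medians of all genes under these were 0.03 and 0.50. The male counts were thus close to those of the whole array. Hepatocyte markers were themselves lower in MM, 6 of 10 by over 1.5-fold with 1 higher, and summed to 5249 on MM and 7826 on CM. Of the 9 heart muscle markers, 6 were lower and 1 higher in MM, and the intestinal list was as given above. The part of these in the male values was not tested.

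**Figure D2:**
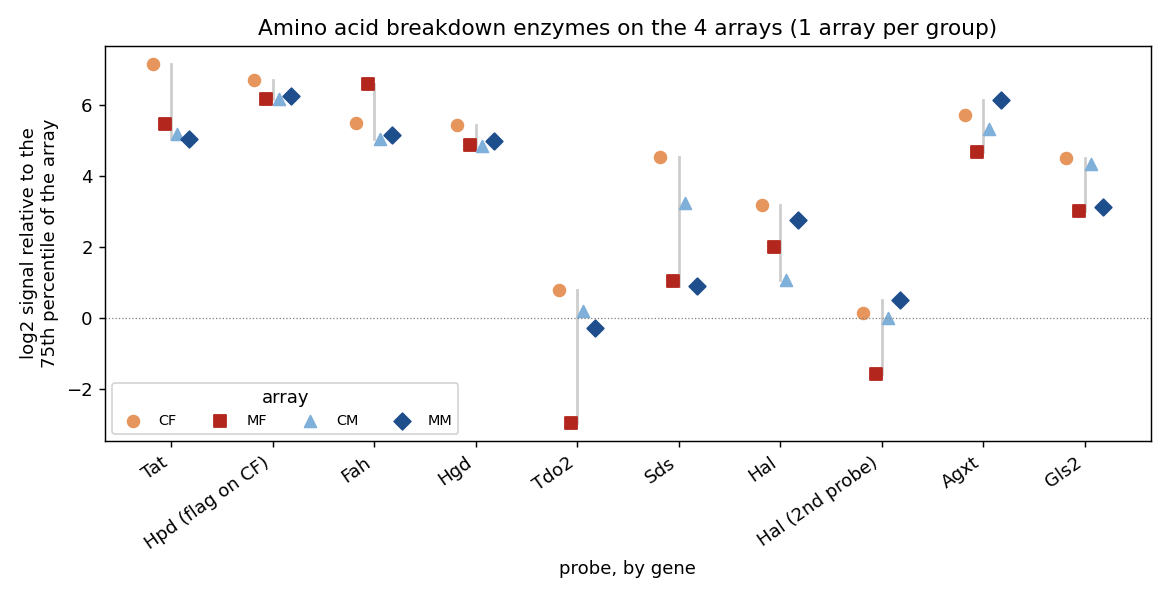
Log2 level of each of the 10 probes on the 4 arrays, relative to the array's 75th percentile; each point is 1 array and grey lines join the lowest and highest. Heights compare arrays within a probe only. *Sds*, *Gls2* and *Tdo2* had both M arrays below both C arrays, and *Tat* stood apart on CF, at 7.17 against 5.05 to 5.49.

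The sequence of tyrosine breakdown includes *Tat*, which removes the amino group, *Hpd*, which makes homogentisate, and *Hgd*, which opens the ring of homogentisate. The last enzyme, *Fah*, yields fumarate and acetoacetate. The level of *Tat* was 7.17 on CF and 5.49 on MF in females, and 5.19 on CM and 5.05 on MM in males. CF was high and the other 3 arrays lay close together. The signal of *Tat* in MF was 3.22-fold below that in CF (log2 difference -1.69), and in males the log2 difference was -0.14, or -1.29 with normexp background correction and quantile normalization. CM was itself 3.95-fold below CF.

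*Hgd* was again highest on CF, with levels of 5.45 on CF and 4.89 on MF, and of 4.86 on CM and 4.98 on MM. Its 1.47-fold lower signal in MF fell just short of the 1.5-fold threshold, and the male log2 difference was 0.12. *Hpd* read 6.72 at the flagged spot on CF, 6.17 on MF, 6.19 on CM and 6.27 on MM. Apart from that spot its 3 values spanned less than the SD of a spot difference.

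*Fah* went the other way from the first enzyme of its pathway in females. Its level was 5.51 on CF and 6.61 on MF, against 5.05 on CM and 5.16 on MM. MF was the high array, 2.14-fold above CF and 2.74-fold above MM, while MM and CM differed by 0.10 on the log2 scale. Under quantile normalization the female log2 difference was 0.43, which is under 1.5-fold, and with normexp added the male one was -0.91. These 4 enzymes of tyrosine breakdown thus had no shared direction in females. In males the 4 log2 differences lay within the SD of spot differences at this scaling. With normexp and quantile normalization *Hgd* in males was 0.72, past 1.5-fold. Unscaled it was 0.68, also past 1.5-fold, but there the median of all genes was itself 0.50.

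*Tdo2*, the tryptophan dioxygenase that starts the kynurenine pathway, had with *Sds* the largest differences of the 8 in females, the order of the pair turning with quantile normalization. Its level was 0.78 on CF and -2.97 on MF, from signals before scaling of 1158 and 114. In males it was 0.20 on CM and -0.29 on MM, from signals of 720 and 759. MF stood far below the other 3 arrays. Relative to CF the gene was 13.4-fold lower in MF (log2 difference -3.74, or -2.70 with normexp and quantile normalization). It was 1 of 2 members over 4-fold lower, with *Sds*, where 2.09% of all genes were. In males it was 1.40-fold lower (log2 difference -0.48), under the threshold.

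*Sds*, serine dehydratase, which turns serine into pyruvate for glucose synthesis, had the largest male difference except with unscaled values. There *Hal* was at 2.25 and *Sds* at -1.79, with a median of 0.50 over all genes. The level of *Sds* was 4.55 on CF and 1.05 on MF, from signals of 15867 and 1855. In males it was 3.24 on CM and 0.89 on MM, from signals of 5922 and 1712. Both M arrays were alike and lay below both C arrays. The difference was 11.3-fold in females (log2 -3.50) and 5.10-fold in males (log2 -2.35), where *Sds* was the 1 member over 4-fold lower, as were 3.85% of all genes. The male log2 difference was -3.52 with normexp and quantile normalization, and at -1.91 with a spatial trend removed and -1.79 unscaled it was under 4-fold. *Gls2*, the liver form of glutaminase, which releases ammonia from glutamine, also had both M arrays below both C arrays. Its level was 4.51 on CF and 3.01 on MF, and 4.33 on CM and 3.13 on MM. It was 2.82-fold lower in MF and 2.30-fold lower in MM, log2 differences of -1.50 and -1.20. These were the 2 members over 1.5-fold lower in both sexes, which held for 1009 of 23967 genes, or 4.21%. No member was over 1.5-fold higher in both sexes, where 3.14% of genes were.

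*Hal* and *Agxt* were lower in MF and higher in MM than in their controls, a pattern of opposite signs that 10% of all genes had at this threshold. *Hal*, histidine ammonia lyase, which starts histidine breakdown, had levels by its brighter probe of 3.20 on CF and 1.99 on MF, and of 1.06 on CM and 2.75 on MM. The signal was 2.31-fold lower in MF and 3.24-fold higher in MM. Its other probe gave 0.13 on CF, -1.58 on MF, -0.01 on CM and 0.50 on MM, with log2 differences of -1.72 in females and 0.50 in males. Both probes were lower in MF. They differed in males, where the second probe was 1.42-fold higher and did not reach 1.5-fold.

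*Agxt*, the aminotransferase that turns glyoxylate into glycine, had levels of 5.72 on CF and 4.69 on MF, and of 5.33 on CM and 6.15 on MM. The 2 C arrays lay between the 2 M arrays. In MF it was 2.04-fold lower than in its control, and in MM it was 1.77-fold higher, although the male log2 difference of 0.83 became 0.27, under 1.5-fold, with normexp and quantile normalization.

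**Figure D3:**
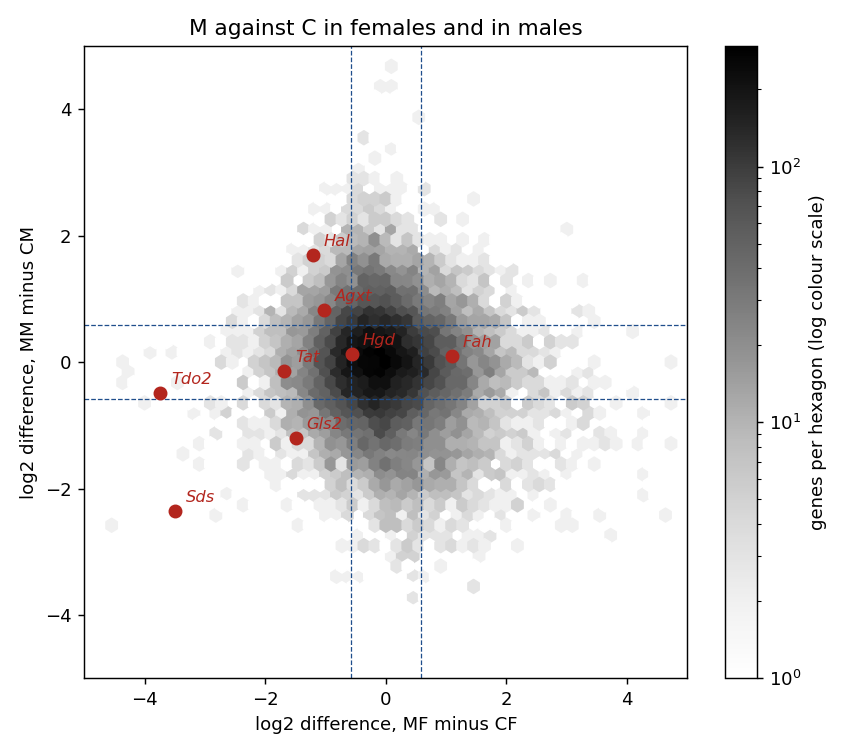
Log2 difference of MF minus CF (x axis) against MM minus CM (y axis) for the 8 members without a flag (red) over all genes compared in both sexes (grey hexagons, log colour scale; differences beyond 5 are not drawn). Dashed lines mark 1.5-fold; *Sds* and *Gls2* lie past it at the lower left, and *Hal* and *Agxt* at the upper left.

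The array of control females held the highest level of 6 of the 8 members, *Fah* being highest on MF and *Agxt* on MM. All 8 were lower on CM than on CF, with a median log2 difference of -0.58 against 0.06 over all genes. 3 of them, *Hal*, *Tat* and *Sds*, were over 1.5-fold lower, at 4.41-fold, 3.95-fold and 2.49-fold, where 19.5% of 25204 genes were. None was over 1.5-fold higher on CM, where 27.2% were. These values take *Hal* by its brighter probe. Its second probe was only 1.10-fold lower on CM than on CF and was highest on MM, at 0.50 against 0.13 on CF. CF is also the array with the heart muscle signal, and the part of that in these levels was not tested. Between the M arrays, *Tdo2* was 6.41-fold, *Agxt* 2.75-fold and *Hal* 1.70-fold higher on MM than on MF and *Fah* was 2.74-fold lower. By its second probe *Hal* was 4.23-fold higher on MM. The 3 members higher by over 1.5-fold compare with 28.9% of 26735 genes, and the 1 lower with 20.1%. Both of these contrasts share arrays with those of M against C.

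A fit over all 4 arrays in limma, with M against C and sex as terms and 1 residual degree of freedom, tested 19303 genes. None of them passed an adjusted p of 0.05, and 853 genes (4.42%) had an unadjusted p under 0.05. Of the 8 members, 3 were among the 853. *Sds* had a log2 difference of -2.92 ± 0.46 (SE, 2 arrays against 2), with a limma adjusted p of 0.964. *Gls2* had -1.35 ± 0.41 and *Tdo2* had -2.11 ± 0.73, both with a limma adjusted p of 0.995. With an unadjusted p under 0.01 and a difference over 1.5-fold, the 1 member that passed was *Sds*, as did 0.844% of all genes. No member therefore passed a test corrected for all genes, and neither did any other gene tested. The fit takes the sexes as replicates, so it can miss a difference in 1 sex only or of opposite signs. It does not show that members were unchanged.

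The rest of amino acid breakdown was read through 7 lists by pathway, which hold 61 genes beside the members. In females, 7 of the 58 compared were over 1.5-fold higher in MF and 18 lower, where 19.9% and 21.2% of all genes were, with a median log2 difference of -0.03, close to the -0.06 of all genes. In males 21 of 59 were higher in MM and 5 lower, where 17.5% and 24.9% of all genes were, with a median of 0.38. By over 1.5-fold in both sexes, 4 were lower and 2 higher, against 4.21% and 3.14% of all genes. The enzymes followed here thus had a lower median than the other genes of their pathways in both sexes. The medians were -1.35 against -0.03 in females and -0.02 against 0.38 in males. In males 2 members were higher and 2 lower by over 1.5-fold, and their median took either sign under other scalings.

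Among the neighbours of *Tat* and *Fah*, *Pcbd1*, which regenerates the cofactor of phenylalanine hydroxylase, was higher in both sexes, with log2 differences of 1.98 and 0.72. Counts of single lists here include the members in them. Of all genes, 19.9% were higher and 21.2% lower in MF, and 17.5% higher and 24.9% lower in MM. In the tryptophan list, 4 of 7 genes, *Tdo2* among them, were lower in MF and 1 higher. The gene over 1.5-fold lower in both sexes was *Acmsd*, which takes the pathway away from NAD synthesis, at -1.43 and -0.93. In the serine, glycine and glyoxylate list, no gene of 14 was higher in MF and 5, *Sds* and *Agxt* among them, were lower. In MM 6, *Agxt* among them, were higher and 2 lower. The 2 lower in MM were *Sds* and its paralogue *Sdsl*, which was named after its values were seen, at -2.23 in females and -1.49 in males.

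In the histidine list, 2 of 4 genes were lower in MF and 3 were higher in MM, with a male median of 0.94. *Hal* itself is counted in each of these. Of the 8 genes of glutamine, glutamate and transamination, 5, *Gls2* among them, were lower and 2 higher in MF. *Got1* and *Got2*, the cytosolic and mitochondrial aspartate aminotransferases, stood on opposite sides, *Got1* at -1.83 and -1.53 and *Got2* at 0.95 and 0.59. The branched chain list had 1 of 17 higher and 3 lower in MF, and 8 higher and 1 lower in MM. In the list of lysine, proline and cysteine, *Aass*, which starts lysine breakdown, was lower in both sexes, at -2.46 and -1.44.

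**Figure D4:**
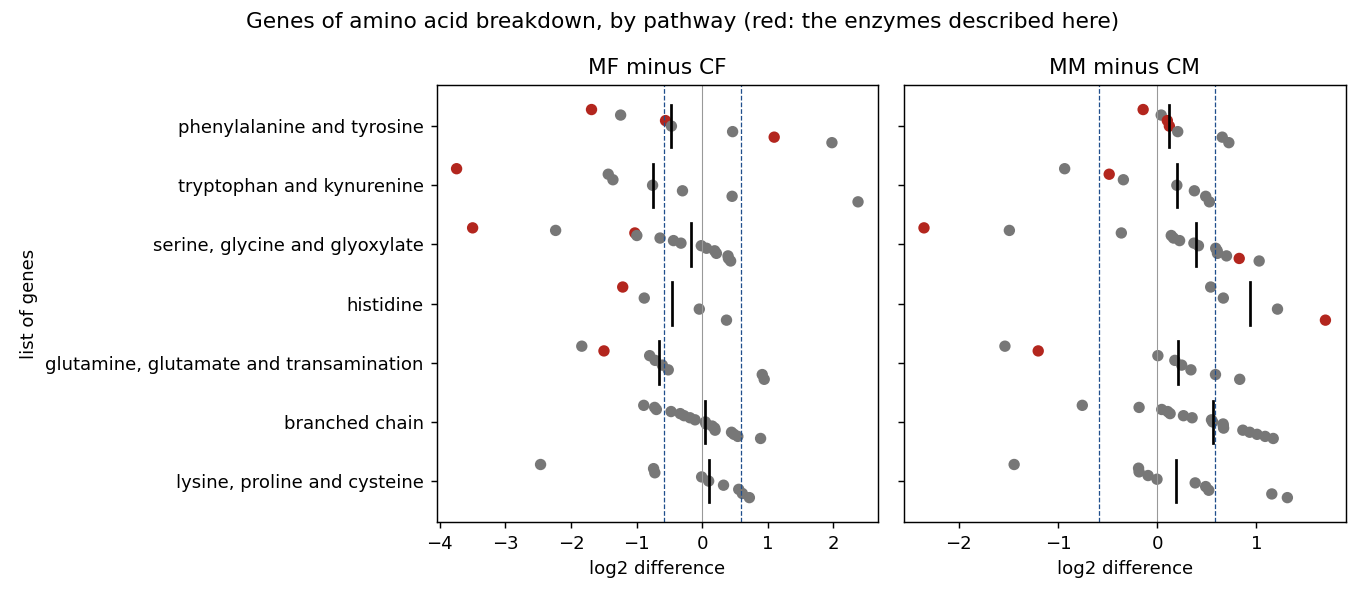
Log2 difference of each gene in 7 pathway lists, MF minus CF on the left and MM minus CM on the right; points are genes (red, the members), black bars are list medians and dashed lines mark 1.5-fold. The axes of the panels differ in scale; the histidine median was -0.46 in females and 0.94 in males.

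Among adult periportal genes past 1.5-fold in both sexes, *Sds* was lowest in M and *Cyp2f2*, a cytochrome P450, highest, at 1.14 and 0.77. Of 7 such genes, 4 were lower in MF, where 21.2% of all genes were, and 1 was higher, and the 4 were all members. In MM, 4 of the 7 were higher, *Hal* and *Agxt* among them, and 2 lower, *Sds* and *Gls2*, with a median of 0.77. Of 9 pericentral genes, 4 were higher and 2 lower in MF. Past 1.5-fold in both sexes, *Rhbg*, an ammonium transporter, was lowest in M at -1.01 and -0.94. *Axin2*, a target of Wnt signalling, was higher in M by log2 differences of at least 0.97 and 2.22, since it was not well above background on CF or CM. Of 9 genes that respond to hormones near birth, 4 were higher and 1 lower in MF, 3 were higher and 5 lower in MM, and none passed 1.5-fold the same way in both sexes. Of 9 regulators of liver genes, 3 were higher in MF and 4 in MM, with 2 lower in MF and none in MM. *Foxa3*, a forkhead factor of hepatocytes, was the highest in M, at 2.31 and 0.85. The glucocorticoid receptor gene *Nr3c1*, which is no member and was named after its values were seen, differed by 0.32 and 0.43, under 1.5-fold.

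Promoters of 7 members were matched by symbol in a RefSeq table on GRCm38.p6, the entries of *Sds* and *Gls2* not being matched. In the 250 bases before the start of transcription, 6 short motifs were searched on both strands. They are shown for *Tdo2*, whose level on MF lay far below the other arrays, and *Hal*, whose sexes differed in sign, with motif matches in capitals. *Tdo2* lies at chr3:81975729-81975978 on the minus strand and *Hal* at chr10:93488518-93488767 on the plus strand.
Tdo2: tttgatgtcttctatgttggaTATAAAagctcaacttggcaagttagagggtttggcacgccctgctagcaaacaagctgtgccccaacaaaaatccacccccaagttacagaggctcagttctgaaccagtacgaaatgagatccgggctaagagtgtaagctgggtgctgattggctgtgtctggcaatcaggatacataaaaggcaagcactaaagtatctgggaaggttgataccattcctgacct
Hal: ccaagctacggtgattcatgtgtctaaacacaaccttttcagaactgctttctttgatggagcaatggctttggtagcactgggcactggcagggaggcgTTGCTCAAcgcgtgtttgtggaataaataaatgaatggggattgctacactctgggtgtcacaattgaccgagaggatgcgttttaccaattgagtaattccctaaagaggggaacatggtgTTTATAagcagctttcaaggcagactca

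The capitals in *Tdo2* mark TATAAA, 229 bases before the start. In *Hal* they mark TATAAA on the other strand, 28 bases before the start, and TTGCNNAA, the core of sites for C/EBP factors, 150 bases before it. TATAAA was found in 3 of the 7 members (*Tdo2*, *Hal* and *Hgd*) and in 12.4% of 32851 promoters. TTGCNNAA was found in *Hal* and *Hgd* and in 9.56% of all promoters. AGAACA, part of the glucocorticoid response element, was found in *Agxt* only and in 16.1% of all. TGACG, part of the cAMP response element, was in none of the 7 and in 17.8% of all, and neither GTTAAT nor CAAAGT, short forms of HNF1 and HNF4 sites, was in any, against 6.43% and 12.6%. These are matches of letters in a short window.

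The genes whose levels followed the mean of the 8 members most closely over the 4 arrays were *Ocrl*, *Nacad*, a transcript listed as ENSMUST00000109328, *Parp11* and *Kank3*, of 19295 genes compared. Likeness was the distance between levels centred on each gene's own mean, and was 0.0498 for *Ocrl* and 0.176 for *Kank3*. The mean centred level of the members was 0.90 on CF and -0.61 on MF, and -0.05 on CM and -0.23 on MM. With 4 points, many genes can share such a profile.

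**Figure D5:**
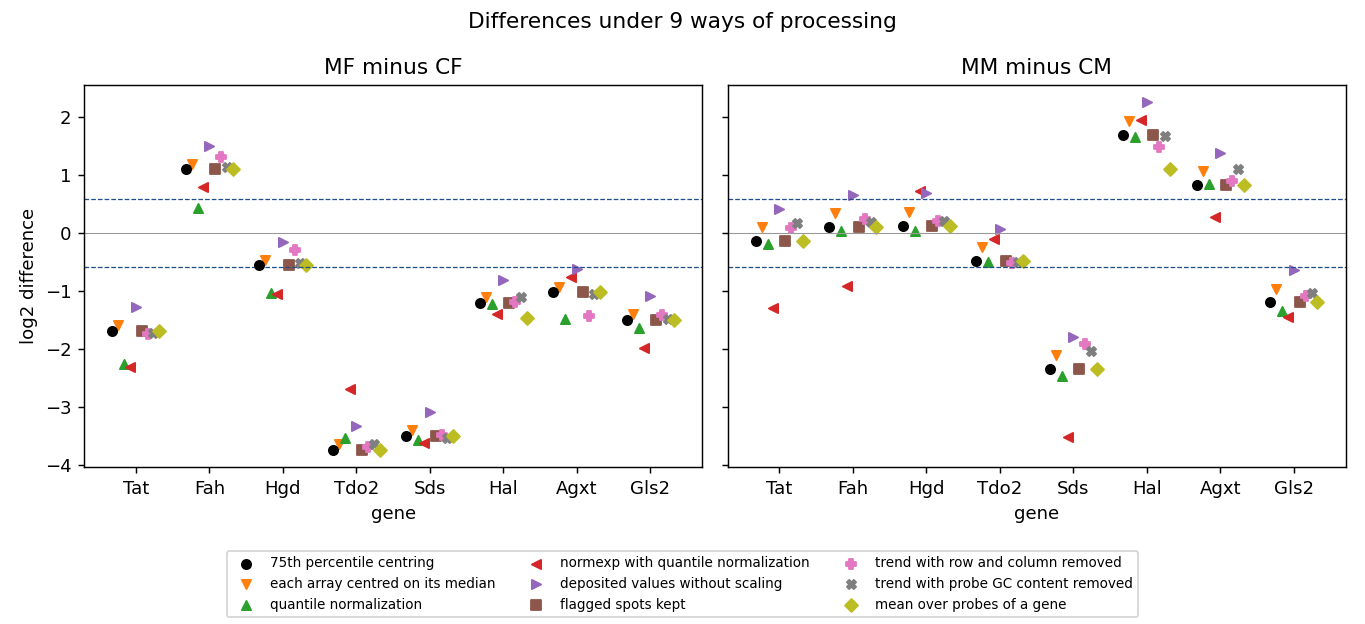
Log2 difference of each of the 8 members in females (left) and males (right) under 9 ways of processing the signals; black circles are the values in the text and dashed lines mark 1.5-fold. *Sds* and *Gls2* stayed over 1.5-fold lower in M in both panels under all 9. *Hal* stayed over 1.5-fold lower in females and over 1.5-fold higher in males under all 9, and *Tat* in males ranged from -1.29 to 0.42.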

How the data were processed

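Whole-liver RNA of 4 groups was measured on Agilent 1-colour arrays, 1 per group. The authors deposited scanner output of Feature Extraction 10.7.3.1 for each array, whose processed intensity is corrected for background, and a value table equal to it for all 62976 spots, with no scaling between arrays. The deposited multiplicative detrend factor, a ratio, was read and not used. Probe positions are on mm9 per the labels and file headers, and promoter positions are on GRCm38.p6.

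From these, log2 of the processed intensity minus each array's 75th percentile was taken over 59305 non-control spots, without 1754 flagged spots. The brightest probe stood for a gene. A gene entered a comparison if either of its arrays had it well above background, the dimmer side being set no lower than the lowest such signal of its array, and differences over 1.5-fold were counted. limma 3.58.1 in R 4.3.3 fitted M against C with sex over genes measured on all 4 arrays, with Benjamini-Hochberg adjustment. The fit was also run on simulated data. These held no difference between the sexes and no signal of other tissues, so that run does not vouch for the fit here. With 1 array per group, the sexes stood in as replicates in this fit. Its p-values therefore weigh the mean M against C difference of the sexes against how far their 2 differences disagreed, moderated over all genes. The labels do not say which animals were separate, so variation between animals is not measured. Motifs were searched in RefSeq promoters. Alternatives were other scalings, background correction, flagged spots kept, spatial and GC trends, probe means and 2-fold. The number of arrays limits the precision. Named genes were all members and, in each list, the largest rise and fall past 1.5-fold in both sexes. Members and lists were chosen with earlier results of these data known. Marker lists for erythroid cells, exocrine pancreas and kidney tubule were read too.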

Additional observations from a re-analysis of the deposited data

Results flagged for a closer look

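*Hal* and *Agxt* lay on opposite sides of their controls in the sexes. The log2 difference of M against C in females less that in males was -2.91 for *Hal* and -1.85 for *Agxt*. Each was over 1.5-fold lower in MF and over 1.5-fold higher in MM, as 10% of all genes were one way or the other. In males the second *Hal* probe was at 0.50, and *Agxt* was at 0.27 with normexp and quantile normalization. Both are under 1.5-fold. With 1 array per group, the difference between sexes was not tested.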

How the results depend on the processing

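Under the scalings, corrections, filters and probe rules tried, 7 or 8 members were past 1.5-fold in females, and 4 or 6 in males, of 8, or of 9 with flagged spots kept. At 2-fold the counts were 7 and 3. Quantile normalization left *Fah* at 0.43, under 1.5-fold, and put *Hgd* past it at -1.04. The female median moved to -0.95 with the deposited values unscaled. The male median moved to 0.54 with the values unscaled and to -0.51 with normexp and quantile normalization. The threshold of the methods was an unadjusted limma p under 0.01 and over 1.5-fold. It was used there on pairwise comparisons with replicate experiments, and here on the M against C term over single arrays of both sexes. Here 1 member passed, *Sds*, as 163 genes (0.844%) did. Of the single differences of members, 96 moved by less than the SD of spot differences, 32 moved by more and 0 reversed after passing 1.5-fold. *Agxt* in males was 0.27 under normexp, below 1.5-fold. *Tat* in males was -1.29 there and 0.42 unscaled, *Fah* in males was -0.91 there, and *Tdo2* in males was 0.08 unscaled. Unscaled values carry shifts of 0.40 in females and 0.56 in males for all genes, and limma then called 10 genes, none of them a member. No paired analysis was possible because each group has 1 array and the labels give no replicate numbers. Leaving out an array removes its group, so no such value exists.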

Other observations

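The summed signal of 8 erythroid markers was 3014 on CF and 2258 on MF, and 2623 on CM and 1678 on MM, with 2 of 8 over 1.5-fold higher and 2 lower in MF and 2 lower in MM. Exocrine pancreas markers summed to 23.1 on CF, 13.3 on MF, 27.1 on CM and 44.4 on MM, and kidney tubule markers to 0.96, 1.60, 3.74 and 1.26 in that order. Most of the pancreas sum came from *Amy2a5* on each array. Of 7 pancreas markers compared in each sex, 3 were over 1.5-fold higher and 1 lower in MF, and 1 was higher and 6 lower in MM. *Amy2a5* was the 1 lower in MF, at -1.24, and the 1 higher in MM, at 0.87. The summed signal of granulocyte and macrophage markers was 627 on CF and 1388 on MF, and 987 on CM and 655 on MM.

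*G6pc*, which releases glucose from the hepatocyte, was named after its values were seen. It was higher in MF, with a log2 difference of 1.37, and lower in MM, at -3.52, whereas *Sds*, which feeds the same route, was lower in both. *Haao* of the kynurenine pathway, also named after its values were seen, was higher in MF by 2.38 while *Tdo2* had a difference of -3.74, and the male difference of *Haao* was -0.34.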
